A study of Mus musculus with 2 samples.

Results

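The miR-344 family is a set of small RNAs cut from a row of related hairpins on mouse chromosome 7. Its members were the names in the study's table of known miRNAs that begin with mmu-miR-344, the prefix mmu standing for mouse, and carry no star. Of the 558 names in that table, 9 begin this way and 2 of them carry a star, which marks the arm of a hairpin that is usually found at the lower level. The 7 members were therefore miR-344, miR-344b, miR-344c, miR-344d, miR-344e, miR-344f-3p and miR-344g-5p, and the star names miR-344d-1* and miR-344d-3* were kept apart as the other arm. Small RNAs were sequenced from whole brain of male mice of the inbred strain C57BL/6J, without genetic change or treatment. The young library came from mice of 5 months and the old library from mice of 24 to 25 months. Each library was a mix of the cDNA libraries of 2 mice, so there was 1 library per age and no replicate. The young library held 4523267 reads and the old library held 6658732 reads, 1.47 times as many.

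A miRNA is made from a long primary transcript in which a hairpin forms, and the hairpin is cut first in the nucleus by Drosha and then in the cytoplasm by Dicer. The duplex that is left has a 5p strand and a 3p strand, and the strand that is loaded into an Argonaute protein guides it to messenger RNAs. Pairing of the seed, the bases near the 5′ end of the miRNA, largely sets which messenger RNAs are bound, so a shifted 5′ end or a changed seed base gives another set of targets. The family lies next to Ndn, which encodes necdin, in a region of chromosome 7 known for genes that are expressed from the paternal copy alone.

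The sequences are shown by seed, because the members share a name but not all of them share a seed. Capitals mark the seed, bases 2 to 8 counted from the 5′ end. All 9 names were found in RefSeq (GRCm38.p6), from which these letters come. The first 3 lines are the members with the most reads, the next 3 are the rarer members of the 3p arm, and the last 3 are the products of the 5p arm.
miR-344: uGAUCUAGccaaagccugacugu
miR-344b: cAUUUAGCcaaagccugacugu
miR-344d: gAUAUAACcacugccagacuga
miR-344c: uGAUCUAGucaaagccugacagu
miR-344e: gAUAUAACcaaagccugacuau
miR-344f-3p: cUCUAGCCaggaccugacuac
miR-344g-5p: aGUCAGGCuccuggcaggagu
miR-344d-1*: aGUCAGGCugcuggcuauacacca
miR-344d-3*: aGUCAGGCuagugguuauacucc

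The 6 members of the 3p arm carried 4 seeds. The seed GAUCUAG was shared by miR-344 and miR-344c and by no other mature sequence of the reference. The seed AUAUAAC was shared by miR-344d, miR-344e and 1 miRNA outside the family, miR-410-3p. The seeds AUUUAGC of miR-344b and UCUAGCC of miR-344f-3p belonged to those members alone. On the 5p arm the seed GUCAGGC was common to 6 products, among them miR-344g-5p and both star names, and to no miRNA outside the family. Over the whole overlap, seed included and aligned without gaps, miR-344b had the same base as miR-344 at 20 of 22 positions, miR-344c at 21 of 23, miR-344e at 19 of 22, miR-344d at 16 of 22 and miR-344f-3p at 15 of 21. The run of 11 bases CAAAGCCUGAC was held by miR-344, miR-344b, miR-344c and miR-344e, which is 0.238% of the 1679 mature names in the reference, and by none outside the family. The longest run common to all 6 members of the 3p arm was CUGA.

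RefSeq names 13 hairpins of the family, and all 13 lay on the minus strand of chromosome 7 within 402 kb (NCBIM37, the assembly also called mm9). In coordinate order the first 3 were Mir344d-1 at chr7:68828010-68828078, Mir344d-2 at chr7:68830158-68830237 and Mir344d-3 at chr7:68871135-68871214. Mir344e followed at chr7:68880423-68880488, and Mir344b at chr7:68935405-68935467. Mir344c lay at chr7:68982197-68982288. The hairpin Mir344 lay at chr7:69022656-69022750 and its copy Mir344-2 at chr7:69084913-69084992. The last members were Mir344g at chr7:69127175-69127245 and Mir344f at chr7:69191067-69191134. Mir344-2 and Mir344g lay inside the long noncoding RNA gene A330076H08Rik on the same strand, where Mir344g overlapped an exon and Mir344-2 did not. No other annotated gene overlapped the remaining hairpins. The annotation of the same assembly placed 23 miRNA precursors, all on the minus strand, between Ube2nl, 133 kb before the first named hairpin, and Ndn, 263 kb after the last named hairpin.

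Reads that matched a precursor perfectly showed how the family was spread over the cluster. Of the 23 precursors, 16 were matched by at least 1 read, and 12 of the 13 named hairpins were. A match does not show that the read came from that hairpin, since several share sequences. Together 56 distinct sequences lay inside a precursor, with 849 reads in the young library and 949 in the old library, and none of them matched the genome anywhere else. Mir344 and Mir344-2 gave identical sequences, so all of their 663 young and 728 old reads matched both hairpins and none could be given to 1 of them. The mature sequence of miR-344d likewise matched the genome 5 times, at its 3 named hairpins and at 2 unnamed precursors of the cluster. Mir344d-2, Mir344h-1 and Mir344h-2 also held no read found there alone. Mir344b, by contrast, held 85 young and 94 old reads that matched nowhere else. Mir344i, the named hairpin nearest to Ndn, held 0 reads, which allows up to 0.663 reads per 1000000 total reads (RPM) in the young library and 0.451 RPM in the old library when 3 reads are taken as the limit.

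**Figure D1:**
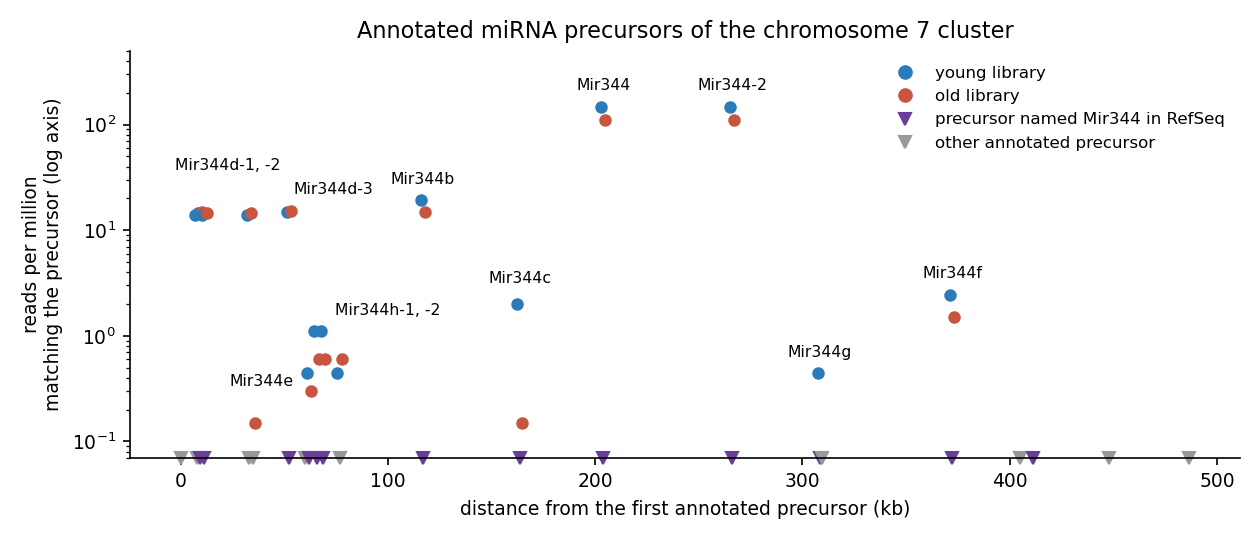
Reads per 1000000 total reads (RPM, log axis) that matched each annotated miRNA precursor perfectly, against its distance in kb from the first annotated precursor, in the young library (blue) and the old library (red). Triangles mark all 23 precursors, and those without a point held no read in that library. The pair Mir344 and Mir344-2 shares the same reads, as do the pair Mir344h-1 and Mir344h-2 and the d hairpins for their 3p arm. Their points are therefore not independent.

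The level of a member was the number of reads in all distinct sequences that began with its first 18 bases, given as RPM. No sequence began like more than 1 member. miR-344 had by far the highest level, with 701 young and 776 old reads. That was 155 RPM in the young library (95% interval 144 to 167) and 117 in the old library (108 to 125), where the exact Poisson intervals cover counting error only. Among the 707 known miRNA starts with a read it ranked 104 in the young and 101 in the old library. The reference used has no entry for some known miRNAs, among them miR-124, so this rank and the background of known miRNAs leave them out.

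miR-344b and miR-344d came next and could not be ordered. miR-344b had 94 young and 114 old reads, or 20.8 RPM (16.8 to 25.4) in the young and 17.1 (14.1 to 20.6) in the old library. miR-344d had 82 young and 120 old reads, or 18.1 RPM (14.4 to 22.5) in the young and 18.0 (14.9 to 21.5) in the old library. Their intervals overlapped in both libraries, and both lay below the interval of miR-344. The levels of miR-344d are sums over at least 3 hairpins, and that of miR-344 over 2, while miR-344b has 1.

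The remaining members were close to the limit of detection. miR-344f-3p had 14 young and 13 old reads, or 3.10 and 1.95 RPM. miR-344c, which shares the seed of miR-344, had 11 young and 3 old reads, or 2.43 RPM (1.21 to 4.35) and 0.451 (0.0929 to 1.32). miR-344e had 2 young and 1 old reads. The 5p member, miR-344g-5p, had 1 read in each library. In the young library the intervals of miR-344f-3p and miR-344c overlapped, and those of miR-344e and miR-344g-5p overlapped as well.

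**Figure D2:**
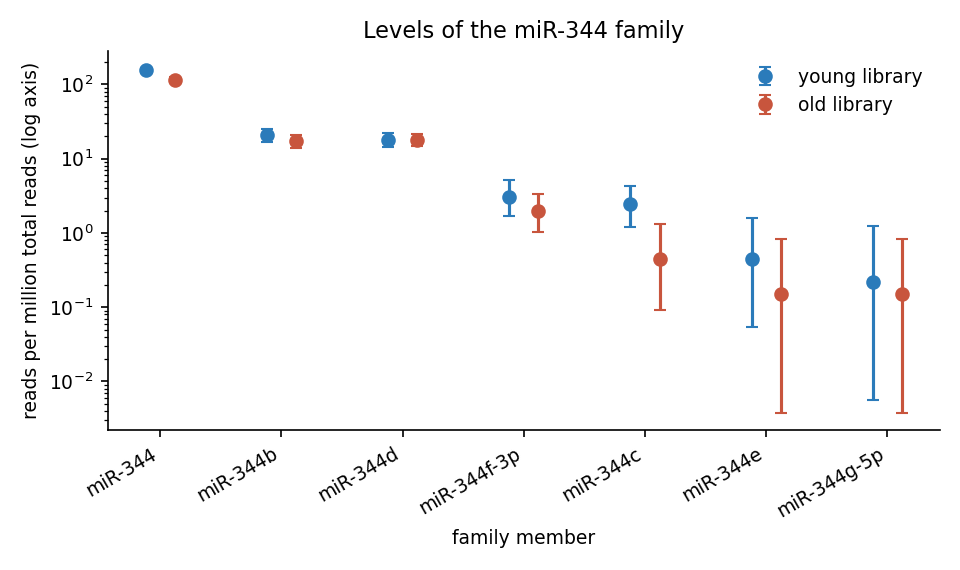
Level of each member in RPM (log axis) in the young (blue) and old (red) library, with exact 95% Poisson intervals for counting error and 1 library per age. miR-344 stands at 155 and 117 RPM, above the intervals of all other members in both libraries, and the intervals of the last 3 members overlap in the old library.

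The 7 members together had 905 young and 1028 old reads. miR-344 made up 77.5% of them in the young library (exact binomial 95% interval 74.6 to 80.1) and 75.5% in the old library (72.7 to 78.1). miR-344b made up 10.4% and 11.1%, and miR-344d made up 9.06% (7.27 to 11.1) and 11.7% (9.77 to 13.8). The 2 intervals of each of these shares overlapped. miR-344c made up 1.22% (0.608 to 2.16) of the young and 0.292% (0.0602 to 0.850) of the old reads. Counted by seed, GAUCUAG had 712 young and 779 old reads. AUAUAAC had 568 and 983, most of them from miR-410-3p and not from the family.

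The comparison of old with young asks how the brain content of each miRNA stood at the 2 ages. With 1 library per age it compares these libraries and not the ages, and in whole tissue fewer cells of a type and less RNA per cell cannot be told apart. Against total reads the family stood at 200.1 RPM in the young and 154 in the old library, a log2 ratio of old to young of -0.37 (95% counting interval -0.50 to -0.24), which turned to 0.19 with DESeq2 size factors and 0.34 with TMM factors. miR-344 had a log2 ratio of -0.41 (-0.56 to -0.26), or 0.752 times the young level, which likewise turned to 0.15 and 0.31. The other 6 members together had -0.25 (-0.53 to 0.02). The sign of these values therefore depended on what was taken as the depth of the libraries.

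Of the other members, miR-344b had a log2 ratio of -0.28 (-0.69 to 0.13) against total reads, which turned to 0.28 (-0.12 to 0.69) with DESeq2 and 0.44 (0.03 to 0.85) with TMM factors. miR-344d had -0.0085 (-0.43 to 0.41) against total reads, although its exact mature sequence alone had 51 young and 87 old reads and gave 0.21 (-0.30 to 0.74). Its ratio was 0.36 (-0.06 to 0.78) without let-7 and miR-98 in the depth, 0.56 (0.14 to 0.98) with DESeq2 and 0.71 (0.29 to 1.13) with TMM factors. miR-344f-3p, with 27 reads in all, had -0.66 (-1.87 to 0.53) against total reads, and its interval included 0 under every depth tried. With total reads the interval of miR-344 lay below 0 and those of these 3 included it.

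miR-344c had the lowest ratio. Its 11 young and 3 old reads gave a log2 ratio of -2.43 (-4.91 to -0.51), or 0.185 times the young level. The ratio itself was below 0 under each depth tried, from -2.58 with the reads on known miRNAs to -1.71 with TMM factors. Its interval reached above 0, however, with TMM factors (-4.19 to 0.21), with DESeq2 factors (-4.35 to 0.05) and for the exact mature sequence against total reads (-8.44 to 0.28). The old count was at the limit of 3 reads, and the exact mature sequence had 5 young reads and 1 old read. miR-344e, with 2 and 1 reads, and miR-344g-5p, with 1 and 1, were below that limit in both libraries, and no fold is given for them.

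The background was taken over known miRNAs, as 345 distinct 18-base starts of RefSeq mature sequences with at least 20 reads in both libraries together. By the bare ratio of counts, 2 of the 7 members were at least 2-fold apart, miR-344c and miR-344e, and nothing can be read from miR-344e, whose counts of 2 and 1 lay under the limit of 3 reads. Over the 345 known starts 31.9% were at least 2-fold apart, 30.4% lower and 1.45% higher in the old library. With a minimum of 1 read, which all 7 members meet, 310 of 707 known starts were at least 2-fold apart. Over all 8524 starts of 18 bases with 20 reads, of any kind of small RNA, 40.0% were at least 2-fold apart. Shifted or changed starts of the same miRNA count apart there, so this is a share of sequences and not of miRNAs. Neither of the 2 members had 20 reads, and of the 4 members that did, 0 were 2-fold apart. All 4 had a ratio below 0 with total reads, against 81.7% of known miRNAs and 49.4% of all starts, and 1 of the 4 had an interval wholly below 0, against 62.6%.

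The known miRNAs had a median log2 ratio of -0.65, with quartiles of -1.09 and -0.19. Of their 345 starts, 223 (64.6%) had a lower ratio than miR-344. Set against that median, miR-344 stood 0.24 higher, miR-344b 0.37 higher and miR-344d 0.64 higher on the log2 scale, while miR-344f-3p was at -0.01 and miR-344c at -1.78. These differences are the same under any depth, since depth moves all ratios together. The other 13 miRNA starts placed on chromosome 7 with 20 reads had a median log2 ratio of -1.02 against total reads. Of them 13 of 13 were below 0 and 7 at least 2-fold lower. Over the known starts the log2 ratio had a slope of -0.37 per 10 percentage points of GC content. The GC content of the 13 starts was not taken into account. A miRNA with several hairpins was placed by the first in the reference. One of the 13, miR-7a-5p, has hairpins on chromosomes 7 and 13.

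**Figure D3:**
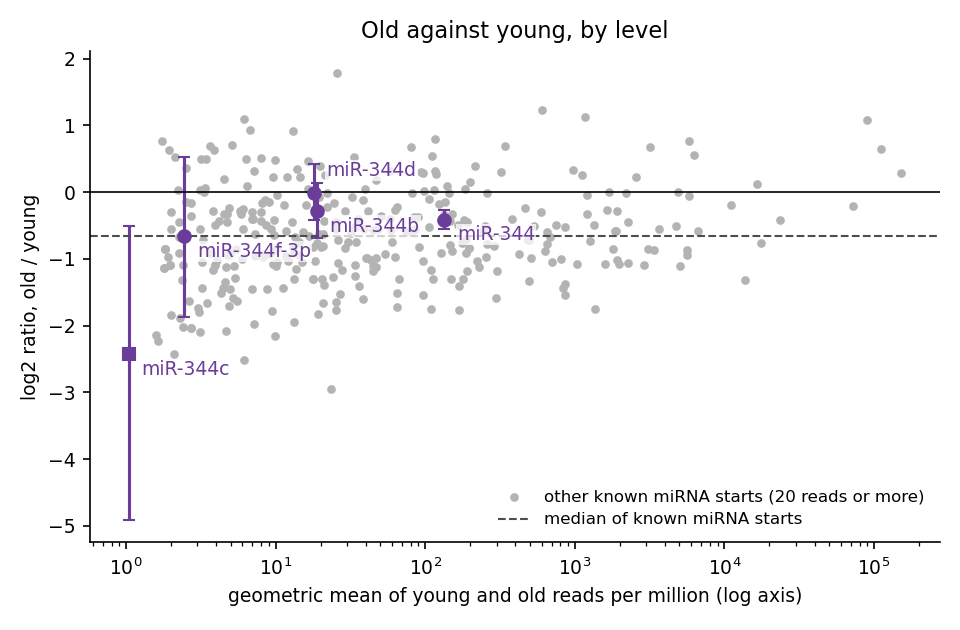
Log2 ratio of old to young RPM against the geometric mean of both levels (log axis), for the other known miRNA starts with at least 20 reads in all (grey) and for members of the family (purple, with 95% counting intervals). The dashed line is the median of known miRNAs at -0.65, above which miR-344 (-0.41), miR-344b (-0.28) and miR-344d (-0.0085) lie, and the square is miR-344c, which had 14 reads in all. With TMM or DESeq2 factors all points move up together and the first 3 lie above 0.

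Comparing members within the libraries needs no depth. Relative to miR-344, the log2 ratio of old to young was 0.13 higher for miR-344b (-0.30 to 0.57) and 0.40 higher for miR-344d (-0.04 to 0.85), by exact conditional 95% intervals of the odds ratio. For miR-344f-3p the difference was -0.25 (-1.47 to 0.96). These 3 intervals include 0. For miR-344c the difference was -2.02 (-4.51 to -0.09), which lay below 0 by little and counts its reads that end like miR-344. The intervals cover the counting of reads only, and reads that are PCR copies of 1 molecule are not independent.

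Among the alternatives tried, the choice of depth moved the family most. When the reads of let-7 and miR-98 were left out of the total, the old library was 1.14 times as deep as the young one and not 1.47 times, and the family ratio was -0.0038. With the reads on known miRNAs as depth it was -0.53. The median of known miRNAs moved with it, to -0.28 and -0.80, and with TMM and DESeq2 factors to 0.07 and -0.09. The share of known miRNAs below 0 then ranged from 47.5% with TMM factors to 85.5% with the reads on known miRNAs.

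**Figure D4:**
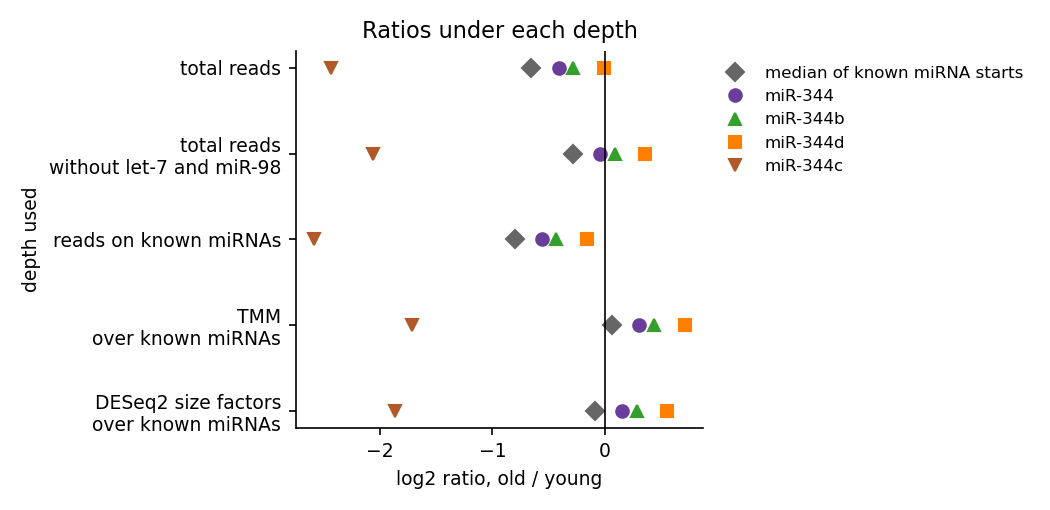
Log2 ratio of old to young under each of 5 measures of library depth, for miR-344, miR-344b, miR-344d, miR-344c and the median of known miRNAs. miR-344 lies at -0.41 with total reads, -0.04 without let-7 and miR-98, -0.56 with the reads on known miRNAs, 0.31 with TMM and 0.15 with DESeq2 factors, and the distances between symbols stay the same.

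Brain identity was checked with miRNAs of known tissue bias, 9 of 14 of which had an entry in the reference used. Those without an entry were miR-124 of brain, miR-122 of liver, miR-1 and miR-133a of muscle and miR-375 of pituitary. Liver and pituitary were therefore not checked. The brain miRNAs miR-9-5p, miR-128-3p, miR-137-3p and miR-132-3p stood at 224 to 22807 RPM in the young and 164 to 13512 in the old library. miR-451a of red blood cells had 255 and 135, miR-144-3p, also of red blood cells, 39.6 and 23.6, and miR-206-3p of muscle 1231 and 1195. In both libraries miR-206-3p was above miR-137-3p (261 and 258) and miR-132-3p (224 and 164), and below miR-9-5p and miR-128-3p. miR-204-5p, a choroid plexus miRNA, had 67.2 and 22.2, and miR-211-5p had no read. Their part in the levels of the family was not tested. An undetermined base was present in 4.57% of young and 1.07% of old reads.

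Reads of a miRNA often differ at the 3′ end, where bases may be trimmed or added after Dicer has cut. The 3 most frequent forms of each of the 3 leading members are shown. Capitals mark bases that the RefSeq mature sequence does not have at that place.
miR-344, reference end: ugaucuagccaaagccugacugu
miR-344, plus A: ugaucuagccaaagccugacuguA
miR-344, plus U: ugaucuagccaaagccugacuguU
miR-344b, reference end: cauuuagccaaagccugacugu
miR-344b, plus A: cauuuagccaaagccugacuguA
miR-344b, plus U: cauuuagccaaagccugacuguU
miR-344d, reference end: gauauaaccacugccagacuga
miR-344d, end base U: gauauaaccacugccagacugU
miR-344d, shorter: gauauaaccacugccagacug

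The main 3′ ends of miR-344 had overlapping intervals in both libraries. The reference end was found in 528 young and 596 old reads, or 75.3% and 76.8% of its reads. Longer reads that still matched the genome made up 12.7% (10.3 to 15.4) and 11.3% (9.20 to 13.8), mainly the form with an added A, which had 73 young and 67 old reads and matches the next base of the hairpin. Shorter reads made up 4.42% and 3.99%. An added U that is not in the genome was present in 18 young reads (2.57%, 1.53 to 4.03) and 32 old reads (4.12%, 2.84 to 5.77), and the intervals overlapped. The intervals did not overlap for reads with an undetermined base past the first 18 bases, with 11 young reads (1.57%, 0.786 to 2.79) and 0 old reads (upper limit 0.474%). The mean length was 23.1 bases in each library.

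miR-344b had the same forms in other proportions. Its reference end held 63 young and 72 old reads (67.0% and 63.2%), and the added A of the genome 18 and 17. The added U was present in 5 young reads (5.32%, 1.75 to 12.0) and 14 old reads (12.3%, 6.88 to 19.7), and these intervals overlapped. In the old library the interval for this U lay above that of miR-344.

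miR-344d differed from both in its most frequent forms beside the reference end. Longer reads that still matched the genome made up 2.44% (0.297 to 8.53) of its young and 3.33% (0.916 to 8.31) of its old reads. For miR-344b they made up 20.2% (12.6 to 29.8) and 17.5% (11.1 to 25.8). The intervals of miR-344d for the reference end and for a last base U overlapped those of miR-344b in both libraries. Its reference end held 51 young and 87 old reads (62.2%, 50.8 to 72.7, and 72.5%, 63.6 to 80.3). The most frequent other form had the same length with U in place of the last base A, in 14 young and 19 old reads. Forms with a last base U that the genome does not have made up 17.1% (9.66 to 27.0) of young and 16.7% (10.5 to 24.6) of old reads. These shares lay above the intervals for the added U of miR-344 in both libraries, but the forms are unlike. The reference end of miR-344 and miR-344b is itself U, so a U in place of the last base cannot be seen there. No read of miR-344d had a U added after its reference end. The shares therefore do not show that miR-344d carried more added U. The form shorter by 1 base had 10 young and 4 old reads. Whether the U replaced a trimmed A or arose otherwise was not tested.

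**Figure D5:**
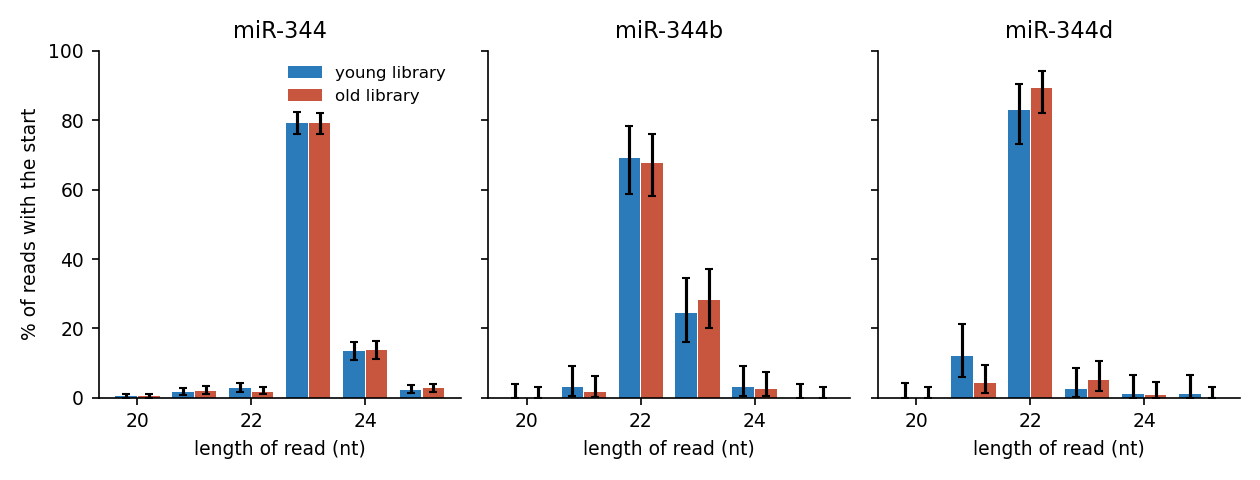
Share of the reads of miR-344, miR-344b and miR-344d by read length in bases, in the young (blue) and old (red) library, with exact 95% binomial intervals for counting error. miR-344 has its main length at 23 bases and the other members at 22, and for each length the intervals of both libraries overlap.

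The 5′ end, which sets the seed, varied little at the hairpins with the most reads. Of the reads that matched the 3p arm of Mir344 perfectly, 648 of 661 young (98.0%, 96.7 to 98.9) and 715 of 728 old reads (98.2%, 97.0 to 99.0) began at the reference base. For Mir344b the share was 97.7% (91.9 to 99.7) and 94.9% (88.6 to 98.3), and for Mir344d-1 63 of 63 and 96 of 97 reads. The shifted reads of Mir344b all matched Mir344 and Mir344-2 as well, and the 85 young and 94 old reads found at Mir344b alone began at the reference base. The hairpins with few reads had lower shares with wide intervals, 9 of 11 young (81.8%, 48.2 to 97.7) and 8 of 9 old reads (88.9%, 51.8 to 99.7) at Mir344f, and 7 of 9 young reads (77.8%, 40.0 to 97.2) and the only old read at Mir344c. A start shifted by 1 base into miR-344 had 6 young and 4 old reads. The study's table of candidates lists a further form, the miR-344-1 isomiR, whose letters are shown because its later start moves the seed.
miR-344-1 isomiR: uAGCCAAAgccugacugu
It begins at base 6 of miR-344 and had 1 young and 4 old reads. The sequence matched the genome at 3 places, in Mir344, Mir344-2 and Mir344b, so its hairpin of origin cannot be told. Sequences that began with these 18 bases had 2 young and 4 old reads in all.

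The 3p arm held nearly all reads of the leading hairpins. At Mir344 and its copy, 2 reads came from the 5p arm and 1389 from the 3p arm, a 5p share of 0.144% (0.0174 to 0.518). Mir344b had 0 reads of the 5p arm beside 186 of the 3p arm, with an exact upper limit of 1.96% for its share. The 5p share was higher at 2 of the 3 named d hairpins than at Mir344, with 6 beside 160 reads at Mir344d-1 (3.61%, 1.34 to 7.70) and 9 beside 159 at Mir344d-3 (5.36%, 2.48 to 9.93). At Mir344d-2 there were 0 beside 159, with an exact upper limit of 2.29%. The 3p reads of the d hairpins match several of them and were counted in full at each, so the 5p share of a single d hairpin could be higher. Mir344d-2 held no read found there alone, so 2.29% does not bound the 5p share of its own reads. By their starts, miR-344d-1* had 3 young and 3 old reads and miR-344d-3* had 4 and 7. Mir344g was the 1 hairpin whose member lies on the 5p arm, and it held 1 read on each arm.

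Reads with 1 difference from miR-344 in the first 18 bases were counted apart from its level. Those with another base made up 8.51% (6.67 to 10.7) of young and 9.84% (7.93 to 12.0) of old reads, when set against all reads with at most 1 difference. Over 197 known miRNA starts with at least 200 reads the medians were 8.18% and 10.5%. The most frequent changes, with positions counted from 1 at the 5′ end, were U4G with 4 young and 14 old reads and C5U with 3 and 13. An undetermined base was present in 30 young reads (3.75%) and 3 old reads (0.347%), against medians of 3.56% and 0.616% over the same starts. Of these, 30 young and 2 old reads had it at base 2, inside the seed.

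Of the 19 mature products that RefSeq gives for the 13 hairpins, 12 had a read by their start and 7 had none. Besides the 9 names of the study's table, the products with a read were miR-344h-3p, miR-344-5p with 1 young and 0 old reads, and miR-344f-5p with 1 and 1. The known miRNAs whose levels were nearest to those of miR-344 were miR-380-3p with 675 young and 783 old reads, miR-543-3p with 670 and 736, and miR-30a-3p with 766 and 832. They were chosen by the distance of log2 RPM over the 2 libraries. Their log2 ratios of old to young were -0.34, -0.42 and -0.44 against total reads, beside -0.41 for miR-344. This likeness follows from the way they were chosen, and over 2 libraries it is a description only.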

How the data were processed

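Small RNAs from whole brain of young and old mice were sequenced, 1 library per age. Per the methods of the authors, adapters were cut from the 3′ end, SOAP placed the reads on mm9, and equal sequences were merged. The deposited values are raw counts of reads per distinct sequence, and no normalization had been applied. Reads without a place in mm9 were not used here.

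A member was tied to a deposited sequence through its 2 counts in the study's table of known miRNAs, so that its exact counts equal the table by choice. miR-344 had 1 sequence with both counts, miR-344b and miR-344d had 2 each and the rarer members had from 229 to 261801, among which the RefSeq mature sequence decided. Reads of a member were all sequences with the same first 18 bases, divided by total reads. No member shared a start, so no reads were split. Ratios used 0.5 in place of a count of 0. Intervals are exact at 95%, from Poisson, binomial and conditional distributions, and cover counting error only. A limit of 3 reads was used for counts of 0. No test across ages was possible with 1 library per age, and edgeR was used for TMM factors and DESeq2 for size factors only. Undetermined bases, marked in 2 ways in the files, were treated alike. Precursors and genes were taken from an annotation of NCBIM37, the names of hairpins and mature sequences from RefSeq (GRCm38.p6), and sequences were searched for perfect matches in the NCBIM37 genome.

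The named miRNAs were the 9 names, every other product of a mir-344 hairpin with a read, the miR-344-1 isomiR, the 3 miRNAs nearest in level and the 3 most frequent forms of the 3 leading members. The members and lists were chosen with earlier results of these data known. The alternatives tried were other depths, other matching of reads, a correction for GC content, other limits and the exact sequences alone. The interval was tried on simulated counts for 8524 starts, 200 of them changed. It covered the true ratio for 96.4% of all and 97% of changed starts. Because the interval is exact for counting error, such coverage follows from its construction. Variation between mice, between libraries or from PCR copies was not tested in this way. The scripts used numpy 2.4.6, scipy 1.17.1 and matplotlib 3.10.9 under Python 3.11.15, while edgeR 4.0.16 and DESeq2 1.42.0 were run under R 4.3.3.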

Additional observations from a re-analysis of the deposited data

Results flagged for a closer look

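miR-344h-3p is a product of the cluster outside the names of the study's table, used in no comparison of the report, and had more than 3 reads in each library. It had 5 young and 6 old reads by its start, or 1.11 and 0.901 RPM, and 5 and 4 reads of the exact mature sequence. Capitals mark the seed.
miR-344h-3p: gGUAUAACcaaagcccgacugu
The sequence is given by RefSeq (GRCm38.p6) and matched the genome at 2 places, both in the cluster, at the hairpins Mir344h-1 (chr7:68884236-68884295) and Mir344h-2 (chr7:68887252-68887311, NCBIM37), so its reads could not be divided between them.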

How the results depend on the processing

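Of 32 alternatives, 18 left a result within its interval or, for a count, within 1.5 times, 10 moved it and 4 turned it. The 18 include alternatives that could not change a value. No member shared a start, so counting shared starts in full gave the same count of members. The GC content of miR-344 equalled the median of known miRNAs, 47.8%, so the GC correction left its ratio at -0.41. The log2 ratio of the family, -0.37, became -0.0038 without let-7 and miR-98 reads in the depth and -0.53 with the reads on known miRNAs, and turned to 0.34 with TMM and 0.19 with DESeq2 factors. The ratio of miR-344, -0.41, became -0.041 and -0.56 and turned to 0.31 and 0.15 under the same depths. The number of members at least 2-fold apart went from 2 of 7 to 1 of 7 with DESeq2 factors. Known miRNAs at least 2-fold apart were 110 of 345 starts, and 310 of 707 with a minimum of 1 read, where the set itself is larger. Of the 345 starts, 61 were with DESeq2 and 64 with TMM factors. With exact sequences alone miR-344 made up 80.6% of young and 78.2% of old family reads. The cause of these changes was not tested, beyond the ratio of depths itself, which went from 1.47 to 1.14, 1.63, 0.895 and 0.996. Other matching of reads, the correction for GC content and the family without miR-344 left the family ratio between -0.40 and -0.25. No paired analysis was possible because there was 1 library per age. Depth limits all members but miR-344, miR-344b and miR-344d, whose intervals alone were narrower than 2-fold.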

Other observations

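Among the 10 annotated precursors of the cluster without a Mir344 name, 4 held reads. The first 2, at chr7:68826401-68826480 and chr7:68851477-68851556 (NCBIM37, minus strand), held the same 3p sequence as miR-344d, with 63 young and 97 old reads and 63 and 96 reads, none of them found there alone. The precursor at chr7:68895354-68895423 held 2 young and 4 old reads in 2 sequences found there alone, and that at chr7:68853591-68853659 held 0 young and 1 old read. The other 6 held no read.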
